A study of Mus musculus with 20 samples.

Results

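Permanent infarction was compared with its sham operation in mouse heart by poly(A) RNA sequencing. The members are the 8 libraries of these 2 groups, of 20 in the series and of 16 sequenced with short reads, chosen by their group labels alone. The MI group holds 4 libraries of heart tissue taken 72 hours after surgery from the infarct core and the regions around it. The MISham group holds 4 libraries of heart tissue from the matching region after sham surgery, with no time given. Permanent infarction occludes a coronary artery without later reflow, in contrast to the IR group (40 min of occlusion, then 72 hours of reperfusion) and its IRSham group, which enter here through the shared estimate of the spread and in the last comparison. The labels name no strain, age, sex or genetic change for either group and do not say whether the 4 libraries of a group came from separate animals, so the p-values measure the spread between libraries.

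An infarct kills cardiomyocytes, the beating cells that burn fatty acids, lactate and branched-chain amino acids in their mitochondria. Dead tissue is cleared by neutrophils and macrophages while fibroblasts and vessel cells divide and lay down a scar, and at 3 days these phases overlap. RNA from such tissue is a mixture of all these cells. In bulk samples, fewer cells of a type and less RNA per cell cannot be told apart.

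The deposited gene counts summed to between 57215382 and 63070805 per MI library and between 24273984 and 27569120 per MISham library. Expression is given below as CPM, a gene's count relative to its library's total, after TMM scaling, which matches the bulk of genes between libraries. A log2 difference is the estimate of edgeR's quasi-likelihood fit of MI minus MISham, with its standard error (SE), and "rose" or "fell" means a Benjamini-Hochberg adjusted p under 0.05 over all 19741 genes tested. Each group has n = 4. On the first principal component, which held 75.1% of the variance of the 8 libraries, MISham 1 and 3 lay at 68.9 and 64.5, nearer to the MI libraries (-99.1 to -71.4) than MISham 2 and 4 at 115 and 108. Several lists that this split touches are therefore also given against MISham 2 and 4 alone. That pair was chosen from these same expression values, as the shams further from MI. Larger differences against it are favored by the choice and are no independent support. The defining cardiomyocyte markers were abundant in every library, at a mean of 9.81 to 10.63 log2 CPM in MI and 11.89 to 12.15 in MISham, and 11 of 12 of them fell.

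The response covered most of the transcriptome. Of the 19741 genes, 6861 rose (34.8%) and 5960 fell (30.2%), 64.9% in all, and 6745 of them changed at least 2-fold (34.2%). The median log2 difference over all genes was 0.08. Scaling by library size alone moved that median to 0.39 and the share of rises among the calls from 53.5% to 68.6%, so each list is read below against the median of all genes. A list that splits about 35 to 30 between rises and falls is therefore not distinguished from the background of all genes. Protein-coding genes, which fill most lists, were called more often. Of 14471, 5975 rose and 4606 fell, 73.1% in all, with a median of 0.13.

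Several of the rises with the smallest p were in cytoskeletal genes. Cd109, a membrane protein that binds TGF-beta, stood at 48.4, 47.9, 39.1 and 49.3 CPM in MI libraries 1 to 4 and at 4.81, 4.95, 6.14 and 5.83 CPM in MISham libraries 1 to 4. All 4 MI libraries lay far above all 4 shams, a log2 difference of 3.09 ± 0.13 (SE, adjusted p = 9.98e-11). The LIM protein gene Csrp1 differed by 2.15 ± 0.10. H2afx, the histone variant that marks DNA breaks, stood at 63.8 to 76.6 CPM against 17.1 to 19.2 CPM (1.92 ± 0.08). The microtubule genes Map1b (2.48 ± 0.13) and Stmn1 (2.23 ± 0.12), nonmuscle myosin Myh10 (1.44 ± 0.08) and the collagen glycosyltransferase Colgalt1 (1.19 ± 0.06) were also among the 15 rises of at least 2-fold with the smallest p. The group ranges did not overlap in any of them, which the rule for naming these genes required and which held in 62.8% of all genes tested.

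Of the 15 falls of at least 2-fold with the smallest p, 8 were in genes for mitochondrial proteins and are described here. The share of such genes among all genes tested or all falls was not computed, so the count shows no enrichment. Nfs1, which supplies sulfur for iron-sulfur clusters, stood at 33.1, 36.0, 37.4 and 35 CPM in MI and at 85.7, 99.8, 91.6 and 98.7 CPM in MISham. Every MI library was below every sham by more than the spread within either group, and the log2 difference was -1.41 ± 0.07 (adjusted p = 4.99e-10). Dbt (-1.88 ± 0.10) and Bckdhb (-2.22 ± 0.11) encode parts of the complex that commits branched-chain amino acids to oxidation. Mccc2 (-2.28 ± 0.13), Acadsb (-1.7 ± 0.10) and Mut (-1.91 ± 0.11) act further along the same routes. Fech, which inserts iron into heme, differed by -1.44 ± 0.08, and Rhot2, which carries mitochondria along microtubules, by -1.82 ± 0.11.

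**Figure D1:**
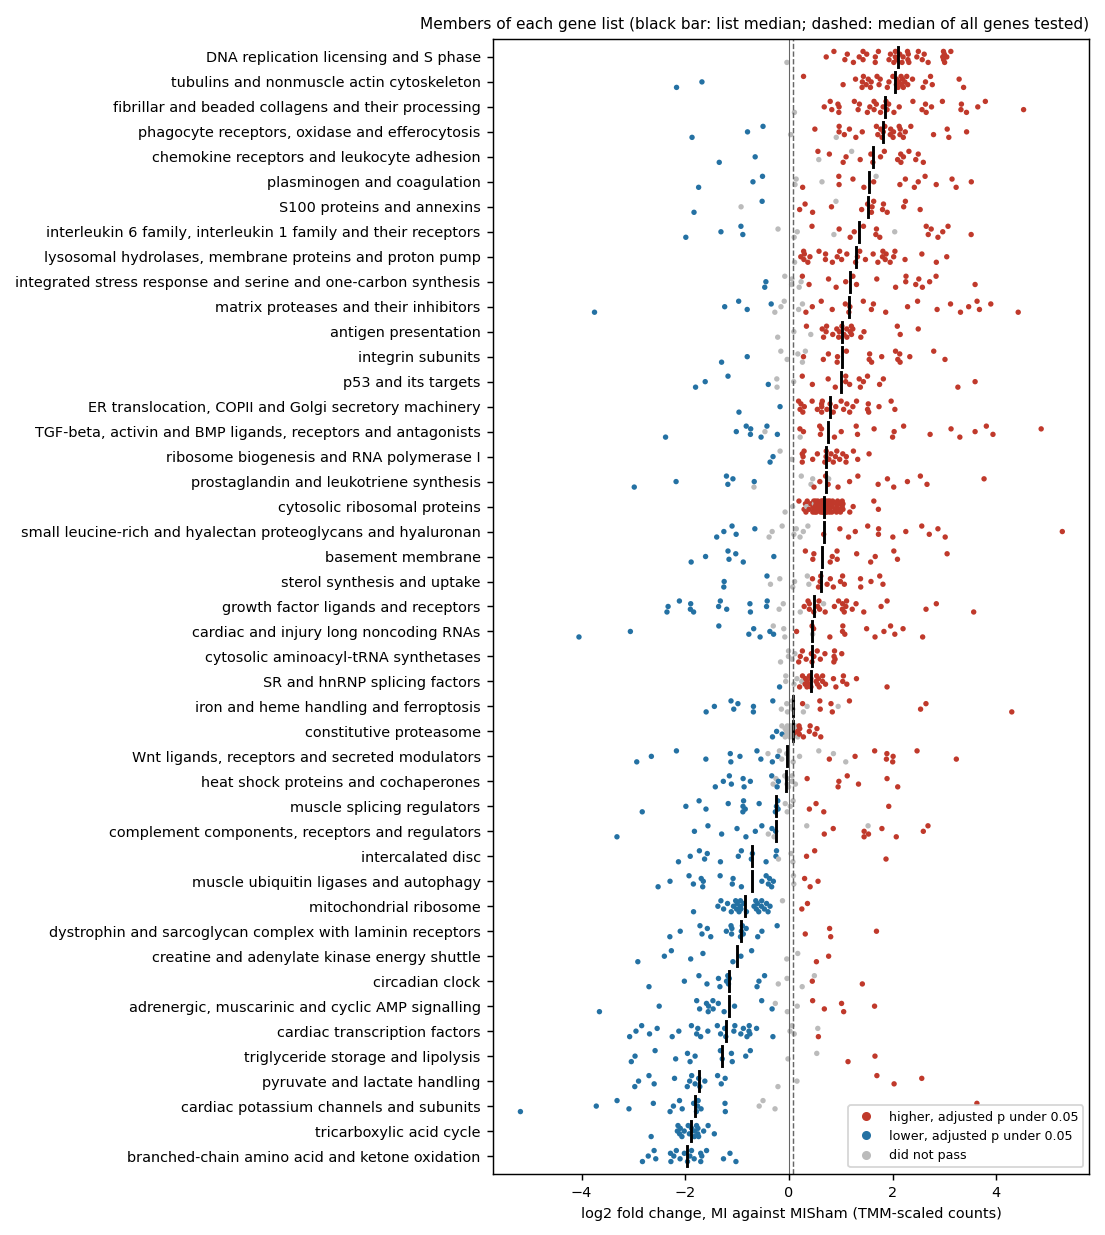
Log2 difference of MI against MISham (x axis) for each member tested of 45 gene lists (rows), with points coloured by the edgeR call, a black bar at each list's median and a dashed line at the median of all 19741 genes (0.08). Lists of mitochondrial fuel use, potassium channels and cardiac transcription factors lie to the left, and those of fibrillar collagen, phagocyte, lysosomal and replication genes to the right.

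Every measured enzyme of the tricarboxylic acid cycle fell. All 19 of 19 genes were lower, with a median log2 difference of -1.88 against 0.08 for all genes. Idh2, the mitochondrial NADP-dependent isocitrate dehydrogenase, stood at 282, 290, 555 and 386 CPM in MI and at 2189, 2568, 2286 and 2507 CPM in MISham. MI 3 kept the highest level of the MI libraries and still lay far below the shams (-2.66 ± 0.32, adjusted p = 2.97e-06). Ogdh differed by -2.15 ± 0.20, Sdha by -2.06 ± 0.17 and citrate synthase Cs by -1.82 ± 0.15. Oxidation of branched-chain amino acids and ketones moved the same way, with 21 of 21 genes lower and a median of -1.96. Its furthest members were Aldh6a1 (-2.83 ± 0.26), Ivd (-2.71 ± 0.25) and Bckdha (-2.60 ± 0.26). The mean level of the tricarboxylic acid cycle list was 7.69 to 8.21 log2 CPM in MI and 9.71 to 9.91 in MISham. The cardiomyocyte marker list had a median of -2.43, and its part in these falls was not tested.

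Most genes that handle pyruvate, lactate and glucose fell, and some members with the same role moved in opposite directions. Of 20 genes, 3 rose, 15 fell and 2 did not pass, with a median of -1.73. Pdk4, a kinase that shuts the pyruvate dehydrogenase complex, stood at 110.1, 120.1, 133 and 141 CPM in MI and at 927, 1429, 1060 and 544 CPM in MISham. The shams varied widely, yet the lowest was well above the highest MI library (-2.97 ± 0.47, adjusted p = 6.89e-05). Pdk2 (-2.60 ± 0.25) and the insulin-responsive glucose transporter Slc2a4 (-2.90 ± 0.32) fell with it. The 3 that rose were the basal glucose transporter Slc2a1 (1.7 ± 0.16), the pyruvate dehydrogenase kinase Pdk3 (2.03 ± 0.20) and the lactate exporter Slc16a3. Slc16a3 stood at 121, 98.3, 136 and 112 CPM in MI and at 25.9, 3.46, 42.1 and 7.00 CPM in MISham (2.56 ± 0.61, adjusted p = 0.00214). MISham 1 and 3 were above MISham 2 and 4, and all 4 were below MI. Ldha, the A subunit of lactate dehydrogenase found in most cells, stood at 865 to 980 CPM in MI and 826 to 853 CPM in MISham without passing the test (0.16 ± 0.07, adjusted p = 0.0719, or 0.0354 without MI 2), while the heart-type Ldhb fell (-2.70 ± 0.25).

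Energy shuttles and fat stores followed. Of 12 creatine and adenylate kinase genes, 8 fell and 2 rose, with a median of -1.0. The muscle creatine kinase Ckm stood at 140.4 to 254 CPM in MI and 1219 to 1468 CPM in MISham (-2.92 ± 0.38). The mitochondrial creatine kinase Ckmt2 fell (-2.40 ± 0.25), whereas the brain-type Ckb rose (0.77 ± 0.17), with 92.7 to 129 CPM against 62.6 to 71.8 CPM. In triglyceride storage and breakdown, 13 of 17 genes fell and 2 rose (median -1.29). The lipid droplet proteins parted: Plin5, which tethers droplets to mitochondria, fell (-3.04 ± 0.38), and Plin2, found in most cells, rose. Plin2 stood at 335, 428, 240 and 302 CPM in MI and at 115, 97.8, 114 and 86.0 CPM in MISham (1.66 ± 0.19, adjusted p = 1.39e-06), with no overlap. Lipoprotein lipase, Lpl, stood at 940 to 1583 CPM in MI against 6442 to 7409 CPM in MISham. Mitochondrial ribosomal proteins, which nuclear genes encode, fell in 27 of 30 genes with a median of -0.85 (-0.53 by library size alone). Mrps35 fell (-1.84 ± 0.15) and Mrpl20 was one of the 2 that rose (0.36 ± 0.08). Transcripts of the mitochondrial genome itself took 2.42% ± 0.39 (SD, n = 4) of counts in MI and 7.98% ± 0.42 in MISham (two-sided exact permutation test, p = 0.0286, the smallest that 4 against 4 allows, adjusted p = 0.0327 over 8 library measures).

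The genes that set the heart's electrical and adrenergic state fell in most cases. Of 20 cardiac potassium channel genes tested, 16 fell and 1 rose, with a median of -1.81. Kcnv2, a silent subunit that modifies voltage-gated channels, stood at 0.174, 0.729, 0.610 and 0.545 CPM in MI and at 15, 19.8, 17.2 and 23.1 CPM in MISham. It was under 1 CPM in every MI library (-5.18 ± 0.50, adjusted p = 2.89e-07). Kcnj3, a channel opened by vagal signalling, fell from 75.8 to 99.7 CPM in the shams to 5.4 to 14.7 CPM (-3.32 ± 0.39). The only channel that rose was Kcnn4, a calcium-activated channel of blood and stromal cells, at 31.6, 39.0, 21.1 and 28.7 CPM against 4.61, 1.26, 2.87 and 0.840 CPM (3.63 ± 0.44, adjusted p = 3.89e-06).

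Of 22 adrenergic, muscarinic and cyclic AMP genes, 14 fell and 5 rose, with a median of -1.15. The alpha-1A receptor Adra1a stood at 2.48, 1.77, 3.38 and 2.37 CPM in MI and at 27.2, 41.6, 28.1 and 29.2 CPM in MISham, again without overlap (-3.66 ± 0.38). The beta-1 receptor Adrb1 fell (-1.72 ± 0.18). The muscarinic receptor Chrm2 fell (-1.78 ± 0.23). The receptor kinase Grk5 rose from 44.9 to 56.4 CPM in the shams to 100.1 to 113 CPM in MI (1.02 ± 0.07), as did the inhibitory G protein Gnai2 (1.06 ± 0.08) and adenylyl cyclase Adcy7 (1.65 ± 0.19).

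Structural genes had medians nearer to 0 than the channel list. Among 19 intercalated disc genes, 13 fell and 3 rose (median -0.70). Connexin 43, encoded by Gja1, stood at 329 to 475 CPM in MI and 757 to 818 CPM in MISham (-0.98 ± 0.12). Connexin 40, encoded by Gja5 and made by conduction and arterial cells, rose from 4.17 to 7.56 CPM to 21.4 to 26.1 CPM (1.87 ± 0.19). The desmosomal cadherin Dsg2 (-1.90 ± 0.22) and the alpha-catenin Ctnna3 (-2.13 ± 0.20) fell, whereas desmin, Des, rose by 0.50 ± 0.15. In the dystrophin and sarcoglycan list, 18 of 22 genes fell and 4 rose (median -0.93), with Sgca at -2.30 ± 0.28, Jph2, which docks T-tubules to the sarcoplasmic reticulum, at -1.68 ± 0.15, and Bin1 at 1.69 ± 0.15.

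Cardiac transcription factors fell in 26 of 31 genes, with a median of -1.22. Klf15, a repressor of hypertrophic growth, stood at 6.17, 5.63, 12.3 and 6.41 CPM in MI and at 53, 77.3, 52.8 and 73.6 CPM in MISham. MI 3 was the highest of its group and still far below the lowest sham (-3.07 ± 0.39). Hopx (-2.95 ± 0.39) and the energy regulators Ppara (-2.69 ± 0.30) and Ppargc1a (-2.54 ± 0.33) fell as far. Gata4, a founding factor of the lineage, fell by 0.77 ± 0.11, and Nrf1, a regulator of nuclear genes for mitochondria, was the only riser (0.57 ± 0.08). Of 19 clock genes, 13 fell and 2 rose (median -1.15). The output factors Hlf (-2.70 ± 0.30), Dbp (-1.74 ± 0.20) and Tef (-1.58 ± 0.10) fell and the repressor Bhlhe40 rose (1.42 ± 0.14). The core genes Clock (-0.04 ± 0.08), Per1 (0.49 ± 0.32) and Per2 (0.26 ± 0.17) did not pass. No hour of tissue collection was available.

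Many muscle proteins have a sister gene used by most other cells, and in 37 of 38 pairs compared the balance moved to the sister entered as widespread. The log2 ratio of the widespread to the muscle gene was taken in each library, and in all 38 pairs the 4 MI values lay on 1 side of the 4 MISham values. Each pair gave p = 0.0286 in a two-sided exact permutation test, the smallest possible, and 0.0286 after adjustment over the 38. Among single genes tested, the groups did not overlap in 62.8%, and no such share was computed for other gene pairs. Cardiomyocyte markers fell in 11 of 12 cases, and their part in these changes of ratio was not tested. The median shift was 3.35, and 3.17 in summed transcript abundance. The largest was in the ribosome: Rpl3 stood at 644, 664, 628 and 652 CPM in MI and 225, 177, 231 and 198 CPM in MISham, while its heart and skeletal muscle sister Rpl3l stood at 16.5, 19.6, 22.2 and 23.3 CPM and 269, 343, 291 and 329 CPM. The muscle form led in every sham and was a small minority in every MI library, a shift of 5.53.

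Fatty acid binding changed next most. Fabp3, the heart form, fell from 2843 to 3217 CPM to 431 to 860 CPM, and Fabp5 rose from 30 to 39.5 CPM to 159 to 226 CPM, a shift of 4.89. The myosin pair Myh9 and Myh6 (4.71), the glucose transporters Slc2a1 and Slc2a4 (4.62), the alpha-actinins Actn1 and Actn2 (4.08) and the glycolytic enolases Eno1 and Eno3 (4.07) were among the next. Not every shift came from both sides: the widespread genes Ldha, Cox8a, Slc25a5, Cpt1a and Hk1 did not pass on their own, and Cox7a2, Utrn and Cox4i1 fell, in all but the last less than their sisters. On the side entered as muscle, Itga7 (-0.03 ± 0.09), Slc16a7 (-0.21 ± 0.16), Hspb7 (-0.25 ± 0.13, adjusted p = 0.0325 without MI 3) and Cox4i2 (-0.46 ± 0.20, adjusted p = 0.0408 without MISham 3) did not pass, and Des (0.50 ± 0.15) and Flnc (0.65 ± 0.12) rose. The smallest shift toward the widespread gene was 0.70, for utrophin Utrn against dystrophin Dmd. Neither the remaining pair nor that of Slc16a3 and Slc16a7 has a muscle form on the side entered as muscle. In the remaining pair, Cox4i1 is the common cytochrome oxidase subunit of heart, Cox4i2 is best known from lung and vessels, and their log2 ratio fell by 1.46. Cox4i1 stood at 339 to 510 CPM in MI and 1414 to 1546 CPM in MISham, and Cox4i2 at 6.21 to 7.52 CPM and 7.79 to 10.6 CPM.

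**Figure D2:**
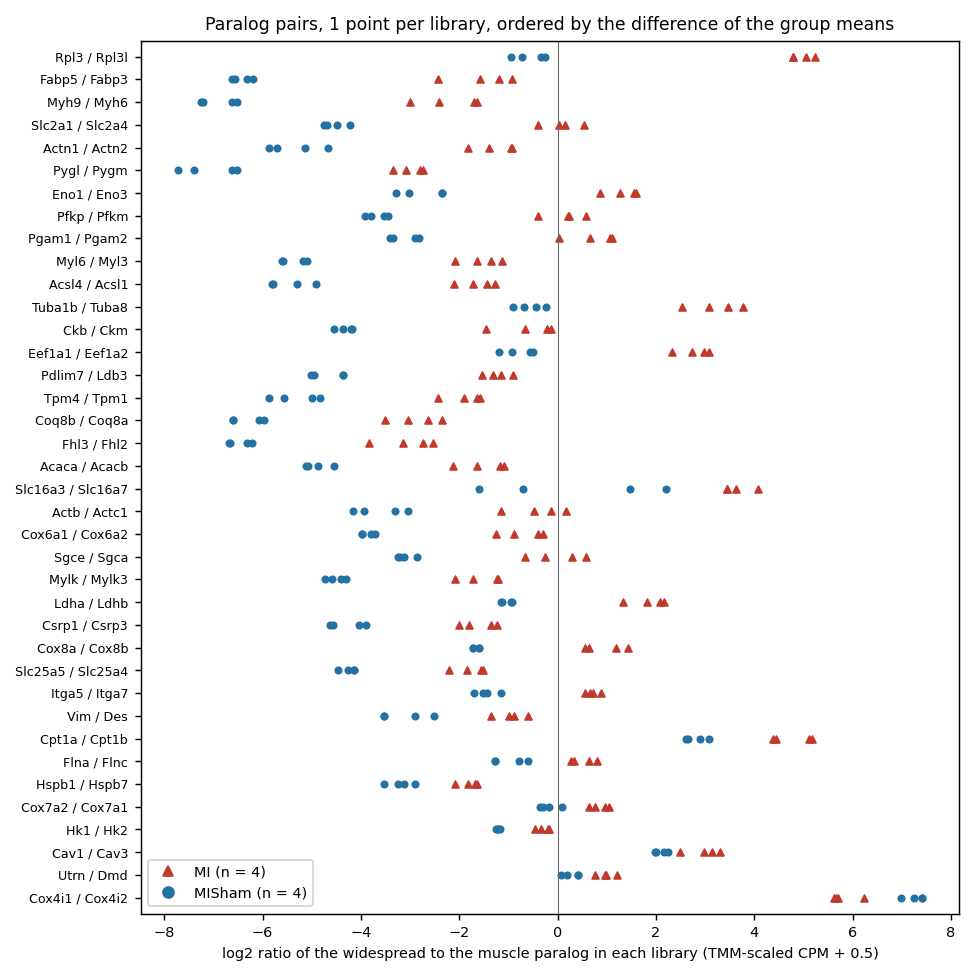
Log2 ratio of the widespread to the muscle paralog (x axis) in each of the 4 MI (triangles) and 4 MISham libraries (circles) for 38 pairs (rows), ordered by the difference of the group means. In 37 pairs the MI points lie to the right, and in the Cox4i1 and Cox4i2 pair, where Cox4i2 is no muscle form, they lie to the left. Slc16a7, entered as muscle against Slc16a3, is no muscle form either.

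The machinery that makes and exports protein rose as a block of small changes. Of 79 cytosolic ribosomal protein genes, 75 rose and none fell, with a median of 0.67 (0.98 by library size alone, 0.79 in scaled summed abundance). Rpl12 stood at 369 to 402 CPM in MI and 152 to 186 CPM in MISham (1.18 ± 0.08). Rps27a had the largest rise (1.73 ± 0.29), but MISham 4 at 203.5 CPM stood apart from the other shams at 64.8 to 75.4 CPM. Ribosome biogenesis rose in 21 of 25 genes and fell in 2 (median 0.72), with Nhp2 at 1.55 ± 0.14 and nucleophosmin Npm1 at 1.33 ± 0.09. Transport into and out of the endoplasmic reticulum rose in 27 of 29 genes (median 0.80). Its channel subunit Sec61b stood at 55.3, 57.0, 53.9 and 55.4 CPM in MI and at 18.1, 10.7, 21.4 and 16.0 CPM in MISham, with no overlap (1.74 ± 0.15). Creb3l1, a factor that turns on collagen secretion, rose by 2.04 ± 0.29, and the vesicle GTPase Sar1b fell by 0.96 ± 0.08. Cytosolic aminoacyl-tRNA synthetases rose in 15 of 20 genes and fell in none (median 0.44).

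Stress pathways gave a mixed picture. In the integrated stress response and serine synthesis list, 17 of 24 genes rose and 2 fell (median 1.17, or 1.35 against MISham 2 and 4). Gdf15, a stress hormone, stood at 64.6, 47.1, 46.7 and 65.6 CPM in MI and at 6.54, 3.51, 3.94 and 4.53 CPM in MISham, a difference of 3.59 ± 0.33 (adjusted p = 2.6e-07). Its transcription factor Atf4 rose by 0.77 ± 0.10, the proline enzyme Pycr1 by 2.58 ± 0.30 and the folate enzyme Mthfd1l by 2.84 ± 0.28. Of 26 heat shock genes, 7 rose and 10 fell (median -0.06, or 0.25 by library size alone), with Hspa1b at 2.10 ± 0.29, Hsp90aa1 at 1.34 ± 0.13 and the muscle chaperone Hspb6 at -1.42 ± 0.16. Constitutive proteasome genes had a median near that of all genes (0.07), with 11 of 31 higher and 3 lower. Fewer of them were called (45.2%) than of all genes tested (64.9%, with 30.2% lower), above all as falls. By library size alone 29 of 31 were higher (median 0.38) and in TPM as deposited 30 of 30 were. The muscle ubiquitin ligase and autophagy list fell in 17 of 22 genes (median -0.72). Fbxo32 (-2.29 ± 0.24) and Trim63 (-1.65 ± 0.18), the ligases used as marks of muscle wasting, were lower, and Pink1, a sensor of damaged mitochondria, fell from 886 to 1084 CPM to 135 to 235 CPM.

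Lysosomal genes rose almost without exception, 31 of 32, with a median of 1.30 (1.51 against MISham 2 and 4). Cathepsin S, encoded by Ctss and abundant in antigen-presenting cells, stood at 513, 482, 361 and 487 CPM in MI and at 144, 35.4, 81.7 and 49.7 CPM in MISham. MISham 1 was the highest sham and still under every MI library (2.57 ± 0.39). Lgmn (2.05 ± 0.18) and Ctsz (2.24 ± 0.25) rose similarly, and the calcium channel Mcoln1 was the member that did not pass (0.11 ± 0.08). Sterol synthesis rose in 15 of 24 genes and fell in 3 (median 0.61). The squalene epoxidase gene Sqle stood at 19.3, 19.2, 9.43 and 17.3 CPM in MI and at 4.05, 3.69, 8.7 and 5.27 CPM in MISham, with MISham 3 close to MI 3 (1.58 ± 0.38, adjusted p = 0.00168). Hmgcs1, an early synthase of the pathway, did not pass (0.07 ± 0.15) and Hsd17b7 fell (-1.26 ± 0.17).

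Iron genes as a list were not distinguished from the background, with 9 of 26 higher, 8 lower and a median of 0.07, but single members moved far. Hmox1, which breaks down heme, stood at 608, 767, 499 and 708 CPM in MI and at 58.5, 11.9, 46.5 and 13.6 CPM in MISham. The shams split, with 1 and 3 above 2 and 4, and all were far below MI (4.30 ± 0.47, adjusted p = 1.73e-06). The ferritin light chain Ftl1 rose from 203.3 to 403 CPM to 1373 to 1918 CPM (2.54 ± 0.21). The heavy chain Fth1 stood at 1612 to 1988 CPM against 1622 to 1981 CPM (0.08 ± 0.11, adjusted p = 0.551), so the ratio of the chains shifted. Gpx4, the peroxidase that protects membranes from lipid peroxides, fell by 1.06 ± 0.11.

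Scar matrix rose broadly. Of 34 fibrillar collagen and collagen processing genes, 33 rose and none fell (median 1.85). The lysyl oxidase Loxl3 stood at 226, 254, 186 and 213 CPM in MI and at 17.8, 7.96, 30.5 and 13.7 CPM in MISham (3.65 ± 0.31). MISham 1 and 3 were above MISham 2 and 4 here as across the list, whose mean level was 6.02 and 6.41 log2 CPM in MISham 1 and 3, 5.16 and 5.45 in MISham 2 and 4, and 7.87 to 7.98 in MI. Against MISham 2 and 4 alone, 34 of 34 rose and the median was 2.25. The basement membrane did not follow as 1 unit: 13 of 20 genes rose and 7 fell (median 0.64). Col18a1, which carries endostatin, stood at 241, 254, 239 and 252 CPM against 34.1, 23.9, 37.8 and 22.7 CPM (3.05 ± 0.21). The laminin chain Lamb2, of muscle and vessel membranes, fell from 640 to 788 CPM to 284 to 359 CPM (-1.16 ± 0.10), and Col4a3 fell by 1.61 ± 0.23.

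Proteoglycans rose in 14 of 27 genes and fell in 5 (median 0.67, or 1.06 against MISham 2 and 4), with the hyaluronan synthase Has2 at 2.88 ± 0.35 and Prelp at -1.02 ± 0.12. Matrix proteases and their inhibitors rose in 21 of 31 genes and fell in 5 (median 1.16). Adam8, a protease of leukocytes, stood at 228, 292, 194 and 246 CPM in MI and at 15.4, 2.11, 22.6 and 4.06 CPM in MISham (4.42 ± 0.58), and Timp1 rose by 3.47 ± 0.60. The gelatinase Mmp2 stood at 96.5 to 137 CPM against 114 to 146 CPM and did not pass (-0.09 ± 0.14). Integrins rose in 17 of 24 genes and fell in 2 (median 1.02, or 1.3 against MISham 2 and 4), led by Itgb3 (3.01 ± 0.36), and the epithelial Itgb6 fell by 1.30 ± 0.22.

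Growth factor families moved in both directions. Of 30 TGF-beta, activin and BMP genes tested, 20 rose and 8 fell (median 0.76). The activin subunit Inhba stood at 63.8, 48.5, 52.2 and 58.3 CPM in MI and at 2.73, 1.80, 8.03 and 1.77 CPM in MISham, all MI libraries far above the shams (3.94 ± 0.39). All 3 TGF-beta ligands rose, Tgfb1 by 1.64 ± 0.11, Tgfb2 by 2.00 ± 0.17 and Tgfb3 by 2.03 ± 0.19, and the coreceptor Tgfbr3 fell by 1.01 ± 0.10. Of 41 growth factor genes, 24 rose and 13 fell (median 0.48). Within the vascular growth factors, Vegfa (-1.36 ± 0.18) and Vegfb (-2.11 ± 0.20) fell together with the receptor Kdr (-0.75 ± 0.13), and Pgf, the placental form, rose from 4.45 to 7.05 CPM to 27.4 to 41.5 CPM (2.65 ± 0.24). Wnt genes split evenly, 9 higher and 11 lower of 29 with a median of -0.04. Its sign changed with the scaling (0.27 by library size alone), with the sham libraries (0.13 against MISham 2 and 4) and with the omission of MISham 3 (0.06) or MISham 4 (0.0014). Secreted inhibitors Frzb (2.47 ± 0.19) and Sfrp2 (1.89 ± 0.37) rose, and the pathway target Axin2 fell (-1.60 ± 0.19).

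Among 22 plasminogen and coagulation genes, 15 rose and 3 fell (median 1.54, or 2.47 against MISham 2 and 4). Plau, which activates plasminogen, stood at 106, 104.5, 65.1 and 83.8 CPM in MI and at 15.3, 8.37, 16.3 and 9.94 CPM in MISham, with no overlap (2.84 ± 0.23). Tissue factor, F3, fell from 19.4 to 27.3 CPM to 5.66 to 7.62 CPM (-1.74 ± 0.16), and its inhibitor Tfpi fell by 0.69 ± 0.11. Of 36 tubulin and nonmuscle actin cytoskeleton genes, 34 rose and 2 fell (median 2.04), the falls being Tuba8 (-2.17 ± 0.23) and Tuba4a.

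Chemokine receptor, phagocyte and antigen presentation genes were mostly higher, over shams that were not alike, while complement genes split. Mean levels of the chemokine receptor and adhesion list were 3.65 and 3.56 log2 CPM in MISham 1 and 3, 2.62 and 2.56 in MISham 2 and 4, and 4.51 to 4.83 in MI. Of its 21 genes, 17 rose and 2 fell, with a median of 1.62, and of 2.34 against MISham 2 and 4. Ccr1 showed the split, at 65.8, 74.7, 66.6 and 75.2 CPM in MI and at 19.4, 7.11, 22.3 and 7.51 CPM in MISham (2.32 ± 0.41). Cxcr4, the receptor for Cxcl12, did not: its shams stood at 11.1, 9.36, 9.76 and 11.8 CPM and its MI libraries at 49.0, 43.9, 51.1 and 50.5 CPM (2.21 ± 0.14). The scavenging receptor for the same ligand, Ackr3, fell from 117 to 126 CPM to 41.6 to 54.8 CPM (-1.34 ± 0.22).

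Phagocyte genes rose in 27 of 32 cases and fell in 3 (median 1.81, or 2.23 against MISham 2 and 4). Arginase, Arg1, stood at 107, 122, 143 and 134 CPM in MI and at 28.2, 1.17, 27.9 and 3.17 CPM in MISham (3.06 ± 0.91, adjusted p = 0.00927). MISham 1 and 3 were far above MISham 2 and 4, and no sham reached MI. The lipid receptor Trem2 rose by 3.43 ± 0.33. Cd163, of resident macrophages, stood at 13.8 to 28.5 CPM against 26.2 to 43.6 CPM and fell, with groups that overlapped (-0.80 ± 0.28, adjusted p = 0.0195). Its call was lost without MI 1, MI 2 or MISham 1 (adjusted p of 0.0615 to 0.068) and against MISham 2 and 4 alone (0.124). Antigen presentation rose in 22 of 25 genes and fell in none (median 1.02, or 1.19 against MISham 2 and 4), with the class II regulator Ciita at 1.23 ± 0.22. Complement split, 9 higher and 10 lower of 23 genes, and its median of -0.26 turned to 0.06 by library size alone and to 0.14 in scaled summed abundance. The anaphylatoxin receptor C3ar1 rose (2.68 ± 0.32), and C7, a terminal component of stromal origin, fell from 20.1 to 27.1 CPM to 1.78 to 3.46 CPM (-3.32 ± 0.32).

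In the interleukin 6 and interleukin 1 list, 15 of 24 genes rose and 4 fell (median 1.35, or 1.91 against MISham 2 and 4). Il6 stood at 8.62, 7.57, 22.8 and 8.68 CPM in MI and at 1.12, 0, 4.57 and 0.233 CPM in MISham, so that MI 3 and MISham 3 led their groups (2.97 ± 0.86, adjusted p = 0.00778, and 4.65 without MISham 3). Il1b stood at 22.7, 27.2, 131 and 27.4 CPM and at 13.7, 0.945, 32.1 and 3.36 CPM. MISham 3 lay above 3 MI libraries, and the difference did not pass (2.04 ± 0.89, adjusted p = 0.0597). Without MISham 3 it was 3.1 (adjusted p = 0.0147), and without MI 3 it was 1.03. It also passed in DESeq2 (2.01, adjusted p = 0.0386), by library size alone (2.31, 0.0362), with a replicate block (2.41, 0.00456), against MISham 2 and 4 alone (4.61, 0.00662) and in TMM-scaled TPM (2.4, 0.0183). The ligand Ctf1 (-1.99 ± 0.28) and the receptors Lifr (-1.31 ± 0.08) and Il11ra1 (-0.89 ± 0.07) fell while their shared signal carrier Stat3 did not pass (0.16 ± 0.09, adjusted p = 0.0343 without MISham 3). In prostaglandin and leukotriene synthesis, 14 of 25 genes rose and 6 fell (median 0.71, or 1.07 against MISham 2 and 4). Ptgs2, the inducible cyclooxygenase, stood at 14.3 to 28.6 CPM against 0.855 to 2.25 CPM (3.77 ± 0.38), and Ptgds fell by 2.18 ± 0.38.

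DNA replication genes rose almost as a set, 37 of 38 with a median of 2.11 (2.34 against MISham 2 and 4). Mcm5, a subunit of the replicative helicase, stood at 93.5, 94.9, 73.2 and 88.4 CPM in MI and at 14.5, 7.11, 14.4 and 7.46 CPM in MISham (3.0 ± 0.23, adjusted p = 3.62e-08). Uhrf1, which copies DNA methylation marks at the fork, stood at 85.7, 94.3, 68.3 and 80.4 CPM and at 12.4, 5.04, 18.9 and 4.85 CPM (2.98 ± 0.38). In both genes MISham 1 and 3 were above MISham 2 and 4, and MI lay above all shams. Cdc6, which loads the helicase, rose by 3.0 ± 0.39 and Mcm6 by 2.50 ± 0.19. Dut, the dUTPase, was the member that did not pass (-0.04 ± 0.09, adjusted p = 0.74). Among 22 p53 target genes, 15 rose and 4 fell (median 1.00), with the cell cycle inhibitor Cdkn1a at 1.52 ± 0.12 and the stress genes Sesn1 and Ccng1 at -1.80 ± 0.13 and -1.61 ± 0.12.

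Replication genes are known targets of E2F factors, so their promoters, from RefSeq on GRCm38.p6, were searched on both strands for 3 E2F motifs, TTTCCCGC, TTTGGCGC and TTTCGCGC, which were chosen with the expression values known. The window ran from 250 bases before to 50 after the start. At least 1 motif was present in 15 of the 31 replication genes with a promoter entry (48.4%), in 430 of 11265 protein-coding genes tested (3.82%), in 1 of 16 tricarboxylic acid cycle genes (6.25%) and in 2 of 58 ribosomal protein genes (3.45%). Below are the 250 bases before the start of 3 genes that rose, on the gene's own strand. Non-overlapping motif matches on either strand are in capitals. The windows lie at chr11:98907901-98908150 (plus strand) for Cdc6, chr17:56304063-56304312 (plus strand) for Uhrf1 and chr1:128359706-128359955 (minus strand) for Mcm6. In Mcm6 a match to TTTCGCGC on the other strand (GCGCGAAA) overlaps the first marked stretch and is only partly in capitals. A match is a description of letters, not evidence of binding.
Cdc6: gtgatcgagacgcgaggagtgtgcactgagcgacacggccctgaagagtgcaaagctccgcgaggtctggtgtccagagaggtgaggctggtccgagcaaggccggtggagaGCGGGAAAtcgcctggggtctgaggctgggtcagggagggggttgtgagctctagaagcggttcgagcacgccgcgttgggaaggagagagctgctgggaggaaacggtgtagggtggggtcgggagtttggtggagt
Uhrf1: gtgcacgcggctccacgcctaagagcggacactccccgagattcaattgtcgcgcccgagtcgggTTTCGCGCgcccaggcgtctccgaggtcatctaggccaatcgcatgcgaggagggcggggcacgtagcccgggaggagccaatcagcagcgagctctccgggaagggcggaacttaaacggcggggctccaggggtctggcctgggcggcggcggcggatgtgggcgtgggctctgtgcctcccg
Mcm6: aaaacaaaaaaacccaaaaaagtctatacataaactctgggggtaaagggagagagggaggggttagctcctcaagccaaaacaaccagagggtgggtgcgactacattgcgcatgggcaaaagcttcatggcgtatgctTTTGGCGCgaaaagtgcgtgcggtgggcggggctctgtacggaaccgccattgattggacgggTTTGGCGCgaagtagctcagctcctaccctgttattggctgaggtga

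Splicing factors rose while muscle splicing regulators fell in part. Of 31 SR and hnRNP genes, 25 rose and 1 fell (median 0.43). Ptbp1, a repressor of muscle and neuronal exons, stood at 209, 212, 173 and 198 CPM in MI and at 60.1, 43.8, 67.4 and 41.8 CPM in MISham (1.89 ± 0.15). Of 22 muscle splicing regulators, 4 rose and 14 fell, with a median of -0.25 that became 0.06 by library size alone. Rbm20, which acts on titin, stood at 82.6, 75.0, 139 and 94.9 CPM in MI and at 355 to 450 CPM in MISham (-1.99 ± 0.22), and Rbfox1 fell by 2.83 ± 0.17. Mbnl1 stood at 159.5 to 190.5 CPM against 156 to 182 CPM and did not pass (0.03 ± 0.07).

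At the level of transcripts, measured in the deposited TPM (relative abundance, corrected for transcript length), 23904 of 40489 changed (59.0%) in limma on log2(TPM + 1), 19823 up (49.0%) and 4081 down (10.1%). TPM fixes each library's total, and after scaling by TMM factors the split was 9960 up (24.6%) and 8363 down (20.7%). Each transcript's percentage of the summed TPM of its annotated gene does not depend on that scaling. By limma on these percentages, 1045 of 7426 genes (14.1%) had a transcript that moved by at least 10 percentage points, and 427 (5.75%) one that moved by at least 20. In 146 of the 7426 genes the most abundant transcript differed between the group means, and both transcripts moved by at least 10 points. The one leading in MI gained and the one leading in MISham lost, each with adjusted p under 0.05. Among the transcripts that moved by 10 points or more, 648 protein-coding forms gained and 582 lost, and 43 retained-intron forms gained and 68 lost. Over all transcripts, in contrast, retained introns took 4.86% of annotated TPM in MI and 3.22% in MISham (exact permutation p = 0.0286, adjusted p = 0.0327).

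Several exchanges were in genes of the sarcomere and the cytoskeleton. Tnnt2, the cardiac troponin T gene, listed its transcript Tnnt2-211 at 74.2%, 77.9%, 73.4% and 74.2% in MI and at 33.4%, 34.3%, 37.8% and 18.3% in MISham, a gain of 44.0 points ± 6.2 (SE, adjusted p = 0.000723). Tnnt2-201 held 38.3% to 55.5% in the shams and was listed at or near 0 in MI. The 2 transcripts thus exchanged places in all libraries. Fhl1-204, of a LIM protein gene, was listed at 51.0%, 48.1%, 49.1% and 51.9% in MI and at 6.86%, 2.35%, 0.0395% and 0% in MISham (47.7 points ± 2.8). The capping protein transcript Capzb-204 rose from 11.96% ± 3.91 (SD) in MISham to 56.5% ± 4.99 in MI (44.5 points ± 3.3). Myh7-201 rose from 7.85% ± 5.41 to 78.7% ± 2.83 of Myh7 (70.8 points ± 9.6), while Myh7 did not pass in counts (-0.31 ± 0.40) and its TMM-scaled summed TPM did not either (0.76 ± 0.52).

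Transcripts were also exchanged in regulators and enzymes. Summed TPM as deposited of Mef2a, a muscle transcription factor, was 37.2 in MI and 35.1 in MISham and its counts fell (-0.77 ± 0.09), while its transcript Mef2a-208 fell from 73.3% ± 4.26 to 33.9% ± 5.20 (-39.3 points ± 4.0). Fxr1, an RNA-binding protein with muscle-specific forms, had 33.9 and 38.4 TPM and fell in counts (-0.87 ± 0.07), and Fxr1-201 stood at 14.7%, 8.15%, 29.2% and 17.8% in MI against 63.8%, 69.5%, 62.7% and 65.9% in MISham (-48.0 points ± 6.0). In the autophagy gene Atg16l1, transcript 203 fell from 79.0% ± 6.85 to 25.5% ± 3.78. In the squalene synthase gene Fdft1 the retained-intron form Fdft1-203 held 91.5% to 96.9% of TPM in the shams and 22.8% to 42.9% in MI (-62.7 points ± 6.8). The pyruvate kinase transcript Pkm-201 rose from 23.2% ± 5.94 to 55.0% ± 2.16 and the prosaposin transcript Psap-202 from 26.7% ± 5.83 to 83.1% ± 4.28.

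One library decided the size of a few exchanges. Gapdh-203 was listed at 78.2% in MI 1 and at 34.5% to 40.0% in the other MI libraries, against 1.47% to 10.2% in MISham. Hspa8-201 (74.6% in MI 1, 31.8% to 50.6% in the others) and Bcat2-201 (70.2%, 41.2% to 49.7%) had the same outlying library. Without MI 1 the gain of Gapdh-203 was 30.2 points in place of 40.3, that of Hspa8-201 32.6 in place of 40.4 and that of Bcat2-201 30.3 in place of 36.6, and each still passed. S100a6-201 gained 28.4 points with MI 1 (adjusted p = 0.03) and 21.2 without it, which did not pass (adjusted p = 0.0843). Its call was also lost without MI 2 or without MISham 1, 3 or 4.

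**Figure D3:**
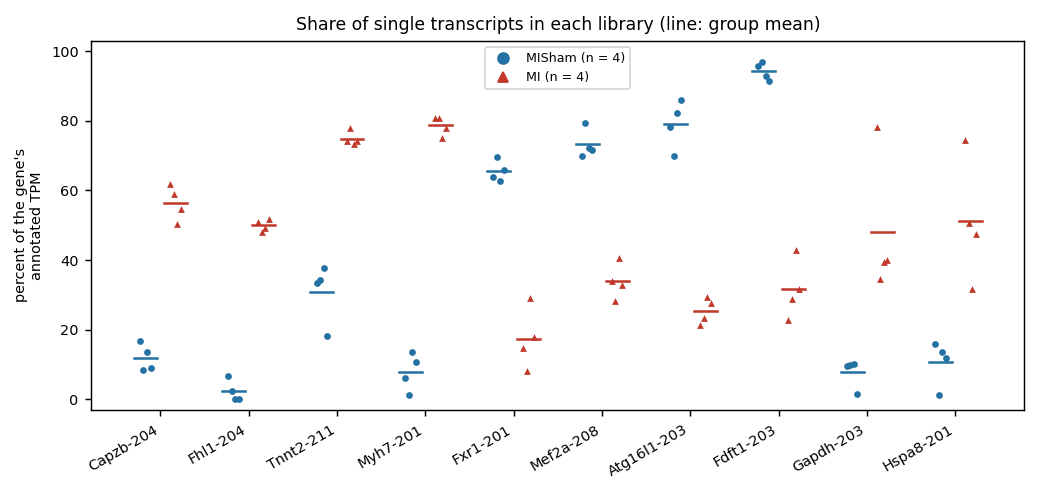
Share of the gene's annotated TPM (y axis, percent) held by 10 single transcripts in each MISham (circles) and MI library (triangles), with a line at each group mean. The groups do not overlap in any of the 10, which were named for large usage changes, a choice that favors such separation. No share without overlap was computed over all transcripts tested. MI 1 stands above the other MI libraries for Gapdh-203 and Hspa8-201.

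The share of genes called differed by class, and that difference was not tested. Of 14471 protein-coding genes, 73.1% changed, of 1671 long noncoding RNAs 49.3% (294 up, 530 down), of 1996 genes outside the annotation 42.2% and of 943 processed pseudogenes 32.1%. In a list of 26 cardiac and injury long noncoding RNAs, 14 rose and 8 fell (median 0.45). H19, a fetal imprinted RNA, stood at 129.6, 94.2, 146 and 112 CPM in MI and at 27.6, 22.4, 34.3 and 32.5 CPM in MISham (2.04 ± 0.19). Dnm3os rose by 1.66 ± 0.21, and Peg13 fell by 1.35 ± 0.10.

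Processed pseudogenes, copies of a messenger RNA pasted back into the genome, can take reads from their parent gene when reads are counted by position, so count changes of parents were set beside summed TPM from a transcript mapper. The median distance between both scales over protein-coding genes (-0.67 in log2) was first taken off, and its cause was not tested. Of 245 protein-coding genes named in the symbol of a processed pseudogene and measured on both scales, 155 were called in counts with a log2 change of at least 0.5, and 1 of them (0.645%) had the opposite sign in summed TPM. Among 12217 genes without such a copy it was 65 of 6885 (0.944%). The median absolute distance between the scales was 0.09 with copies and 0.12 without, and 2.45% against 3.93% of genes differed by more than 1. The 1 gene was Mrpl48, at -0.56 ± 0.09 in counts and 0.04 in TPM after the offset, so it sat at the line of no change. With parents found by aligning transcripts, 5 of 408 (1.23%) were opposite against 61 of 6632 (0.92%): Mrpl48, Gm10131, Atp5g2, Naca and Kxd1.

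Genes with the most copies had the same sign on both scales. Rpl31 (24 copies by name) differed by 0.67 in counts and 0.95 in TPM, Rps12 (23 copies) by 1.00 and 1.13, Rpl21 (15 copies) by 0.61 and 0.71 and Hmgb1 (10 copies) by 0.55 and 0.60. The largest distances among named parents were in Kif4 (3.11 in counts, 1.41 in TPM), Cycs (-1.5 and -2.80), Cd63 (1.36 and 2.58), Atp5l (-1.55 and -0.35), Rps13 (0.19 and 1.23) and Rpl27 (0.48 and 1.5), none with opposite signs. The count call of Rps13 was lost when any of the 8 libraries but MI 1 or MISham 4 was left out. A different loss was seen in levels. Of 5394 protein-coding genes with at least 20 TPM, 76 had counts over 4 log2 units under what their TPM would give, over both groups. Rpl24 was listed at 852 TPM in MI but 0.513 CPM, Ndufb9 at 351 TPM and 0.285 CPM, and Etfb at 277 TPM and 0.332 CPM. Count levels of such genes are not usable, whatever their fold change.

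**Figure D4:**
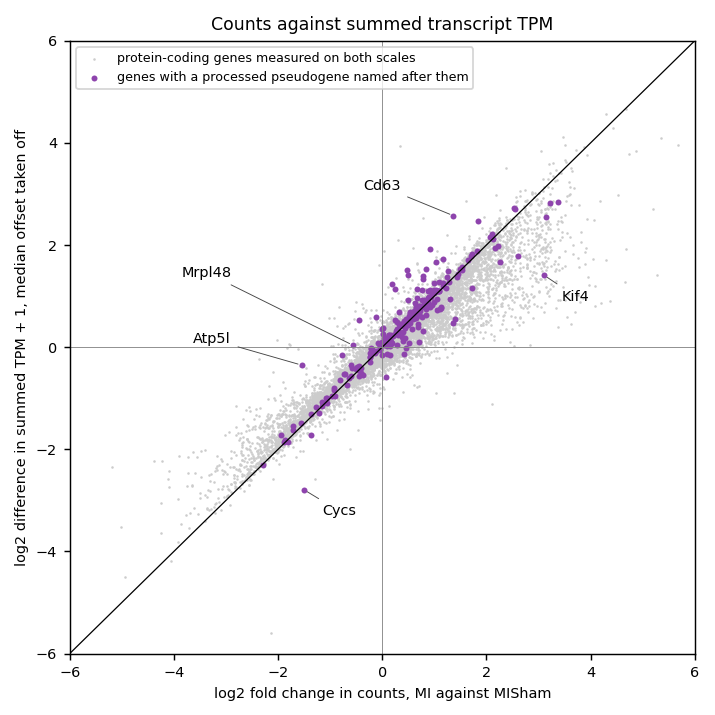
Log2 difference of MI against MISham in counts (x axis) and in summed TPM + 1 with the median offset taken off (y axis) for protein-coding genes (grey) and for genes with a processed pseudogene named after them (purple), with the line of equality. Mrpl48 lies next to the line of no change in TPM, and Kif4, Cycs, Cd63 and Atp5l lie furthest from equality among the labelled parents.

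Markers of other cell types moved in different directions. Lymphatic endothelium markers split, with 3 of 8 higher and 5 lower (median -1.13): Flt4 stood at 77.6, 58.5, 60.5 and 71.6 CPM against 34.3, 31.6, 31.9 and 33.5 CPM (1.03 ± 0.12), while the fate factor Prox1, which cardiomyocytes also express, fell from 119 to 141 CPM to 21.6 to 36.7 CPM (-2.31 ± 0.21). Endocardial, venous and arterial markers rose in 10 of 18 genes and fell in 5, with Apln at 1.89 ± 0.23 and the endocardial Cytl1 at -3.20 ± 0.43. Platelet markers rose in 5 of 9 genes and fell in 1, with Pf4 at 153 to 214 CPM against 16.3 to 32.5 CPM (2.88 ± 0.20). T and natural killer cell markers rose in 9 of 18 genes and fell in 1 (median 1.05, or 1.66 against MISham 2 and 4). Siglecf, a receptor of eosinophils, stood at 7.85, 5.97, 5.81 and 7.13 CPM in MI and at 0.401, 0, 0.512 and 0.0933 CPM in MISham (4.66 ± 0.59). It was 1 of 2 that rose among the 7 mast cell, basophil and eosinophil markers tested, of which 4 fell (median -1.25, or -0.93 against MISham 2 and 4), and the eosinophil granule genes Epx and Prg2 were too low to be tested. Of 12 mesothelial markers, 3 rose and none fell. Of 7 erythroid markers tested, 1 fell and none rose.

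The response to permanent occlusion was set against the response to reperfusion by an interaction term in the same edgeR fit, since both models have their own shams. Of 19741 genes, 38 differed (0.192%), 23 with the more positive response in MI. The count was not stable: leaving out 1 of the 16 libraries in turn gave 3 to 282 genes (282 without IR 3, 84 without MISham 3, 3 without MI 1, MISham 2 or IRSham 4), and a replicate block gave 6. Acta2 and Arntl were called in each of the 18 other fits.

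Acta2, the smooth muscle and myofibroblast actin, stood at 399, 389.7, 374 and 377 CPM in MI and at 90.9, 47.8, 77.8 and 78.0 CPM in MISham (2.38 ± 0.22). In the other model it stood at 289.7, 289.6, 348 and 289.6 CPM in IR and 224, 356, 329.6 and 528 CPM in IRSham (-0.24, adjusted p = 0.346). The MI libraries lay above every IR library and within the IRSham range, and the MISham libraries lay below all others. The difference of the responses was 2.63 ± 0.30 (adjusted p = 0.00605). Arntl, a core clock activator, fell in MI (-0.47 ± 0.15) and rose in IR (0.99). The fall did not pass by library size alone (-0.16, adjusted p = 0.35) or in TMM-scaled TPM (-0.31, adjusted p = 0.0544). Its shams stood at 25 to 35.3 CPM in MISham and 11.2 to 16.8 CPM in IRSham. Flt4 (1.09 ± 0.17), Slc2a1 (1.20 ± 0.23) and Hk1 (0.59 ± 0.11) had the more positive response in MI, with adjusted p of 0.0245, 0.0431 and 0.0332. They were called in 13, 4 and 8 of the 18 other fits, respectively. Hk1 did not pass in MI (0.06 ± 0.08, adjusted p = 0.501) and fell in IR (-0.53).

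**Figure D5:**
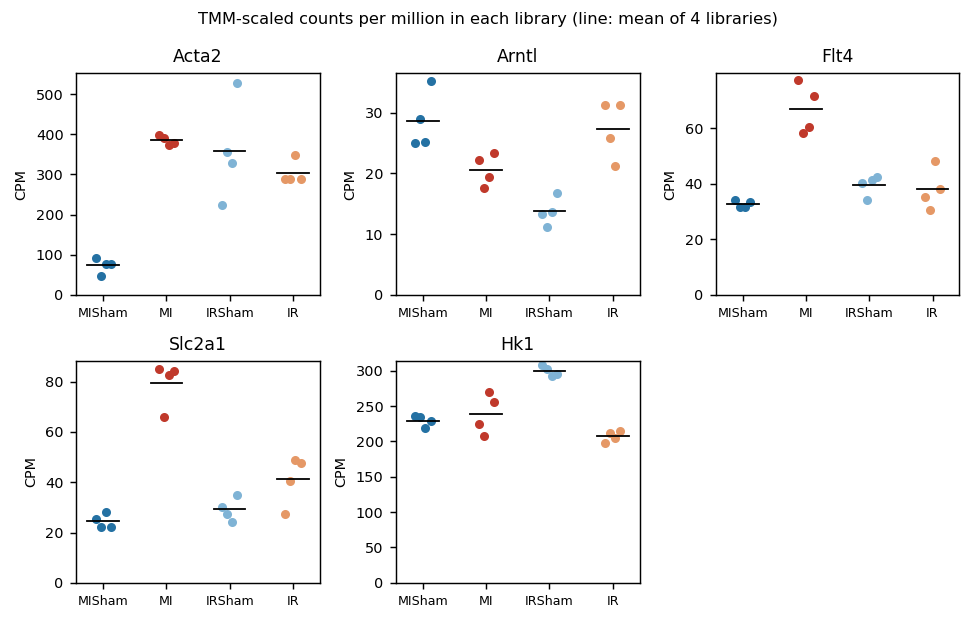
CPM (y axis) of Acta2, Arntl, Flt4, Slc2a1 and Hk1 in each library of the MISham, MI, IRSham and IR groups, with a line at each mean of 4. The MISham libraries stand alone at a low Acta2 level, and the sham groups of Arntl do not overlap.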

How the data were processed

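The deposited gene table holds raw read counts that the authors made by aligning to GRCm39 with HISAT2 2.2.1 and counting with featureCounts 2.0.1, per the submitters' processing notes, and the deposited transcript table holds TPM values (relative transcript abundance, corrected for length) for a catalogue that includes long-read transcripts, with kallisto 0.50.1 named in the same notes. Estimated counts in a column that names no sample, as the authors deposited them, were not used, nor were the 4 long-read libraries. Strand settings are not recorded in these sources, so genes that overlap on opposite strands may share reads.

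Counts of all 16 short-read libraries were fitted with edgeR 4.0.16 (TMM, robust quasi-likelihood; genes kept by filterByExpr, minimum count 10, minimum total 15), with Benjamini-Hochberg adjustment over 19741 genes and calls at 0.05. TPM were tested with limma 3.58.1 on log2(TPM + 1), leaving out those under a mean TPM of 1. Transcript percentages were tested likewise, in genes whose summed TPM averaged 5 or more and of which 2 or more transcripts held 5%. Ratios and library measures had two-sided exact permutation tests. GENCODE M21 supplied names for 52081 of 63318 genes and 138330 of 163740 transcripts. Members, gene lists and motifs were chosen with earlier results of these data known. The genes named were the 15 with the smallest p in each direction among protein-coding genes changed 2-fold without overlap, up to 4 called members per list and direction with the largest change at 5 CPM or more, members with a list's defining role, and the largest usage changes and distances between scales; only some of those the rule names are printed, and a few genes and 1 paralog pair are not reported here.

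On simulated counts for the 19741 genes of this comparison edgeR recovered 96 of 100 2-fold changes. The changed genes were drawn only from well-counted ones. A single dispersion served all genes and the split among the shams was not simulated, so the rate covers neither low genes nor such splits. On simulated percentages limma recovered 13 of 100 shifts of 10 points and 60 of 100 of 20 points. Alternatives were DESeq2 1.42.0, other scalings and filters, thinned counts, a replicate block, single libraries left out and MISham 2 and 4 as the only shams.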

Additional observations from a re-analysis of the deposited data

Results flagged for a closer look

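Single libraries stood apart from the 3 others of their group in 30 of 562 groups of 4 values examined (5.34%), where chance marks about 1 in 20. MI 3 was the most frequent. It was the highest MI library for the cytokines Il1b (131.0 CPM against 22.7 to 27.4) and Il6 (22.75 against 7.57 to 8.68), for Klf15 (12.32 against 5.63 to 6.41), Prox1 (36.74 against 21.6 to 23.5), Tef (57.8 against 51.3 to 52.4) and Rpl21 (128.7 against 123 to 124), and for the log2 ratio of Cox4i1 to Cox4i2 (6.227 against 5.62 to 5.7). It was the lowest for Cd109 (39.13 CPM against 47.9 to 49.3), Cdkn1a (88.24 against 110 to 114), Colgalt1 (193.1 against 205 to 208) and Fabp5 (159.2 against 218 to 226).

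MISham 3 was the highest sham for Inhba (8.031 CPM against 1.77 to 2.73), Itgb3 (12.99 against 3.6 to 5.13) and Npm1 (145.5 against 108 to 114), and the lowest for Cdkn1a (36.14 against 37.3 to 37.4) and Ldha (826.4 against 848 to 853). MISham 2 was the highest for Adra1a (41.56 against 27.2 to 29.2) and the lowest for Atf4 (69.67 against 85.7 to 87.1). MISham 4 was the highest for the ribosomal protein genes Rps27a (203.5 CPM against 64.8 to 75.4) and Rps13 (251.7 against 210 to 215), and listed Gapdh-203 at 1.468% against 9.52 to 10.2% in the other shams. MISham 1 was the highest for Mcoln1 (46.04 CPM against 40.1 to 40.9) and Fhl1 (160.7 against 142 to 144).

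MI 4 had the lowest Rps27a of its group (274.4 CPM against 365 to 375). MI 1 listed Gapdh-203 at 78.18% against 34.5 to 40% and had the lowest Mrpl20 (36.76 CPM against 41.4 to 41.6). MI 2 had the highest H2afx (76.57 against 63.8 to 65.1), the lowest Slc2a1 (65.92 against 82.7 to 85) and Fdft1 (20.23 against 21.8 to 22), and the lowest percentage of TPM in protein-coding transcripts (82.33 against 82.9 to 83).

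The response to permanent occlusion differed from the response to reperfusion, by the interaction term of the edgeR fit, for 5 of the genes named. The log2 response in MI minus that in IR was 2.627 for Acta2, 1.201 for Slc2a1, 1.086 for Flt4, 0.593 for Hk1 and -1.462 for Arntl.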

How the results depend on the processing

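The 12821 genes called by edgeR became 13190 in DESeq2, 12537 without a count filter, 12761 with MI and MISham alone, 12576 with MI thinned to the sham depth, 12342 against MISham 2 and 4, and 12076 to 12628 with 1 library left out. Library size alone called 13588, of which 68.6% rose. TPM as deposited called 11307, of which 83.8% rose, and TMM-scaled TPM 9624, with 3798 in place of 6745 changed 2-fold or more. The labels do not say that replicate numbers pair the libraries. Correlations between same-numbered ones were -0.0562 to 0.0448, which cannot decide it with so few libraries. A replicate block called 12279 genes, and 759 genes with a usage change in place of 1045. It called 6 in place of 38 genes whose MI and IR responses differ. That count was 3 to 282 with 1 library left out. Usage changes fell to 668 genes at 20 summed TPM or more and to 427 at 20 points or more. The 1 parent gene of opposite sign became 5 with parents by alignment, 0 for changes of at least 1 or with at least 3 or 10 copies by alignment, 10 without taking off the median distance, and 0 to 3 with 1 library left out. The share of counts in processed pseudogenes, 0.0468 points higher in MI without passing, was 0.02999 to 0.06024 points higher with 1 library left out and passed without MISham 4. Among 220 genes named, the sign of the log2 difference reversed in TPM as deposited for Arntl (0.2756), Atg16l1 (0.4587), Atp5g2 (1.247), Atp5l (0.3175), Clock (0.5924), Cox8a (0.7363), Dut (0.6839), Gapdh (0.1432), Hspb7 (0.4703), Itga7 (0.679), Kxd1 (0.6983), Mef2a (0.08259), Mmp2 (0.6085), Mrpl48 (0.7059), Myh7 (1.402), Naca (1.079) and Utrn (0.4992). It reversed in TMM-scaled TPM for Atp5g2 (0.639), Capzb (-0.05936), Gm10131 (-0.3566), Kxd1 (0.08323), Mrpl48 (0.1523) and Naca (0.4306), and by library size alone for Clock (0.2775), Cox8a (0.2853), Dut (0.272), Itga7 (0.274) and Utrn (0.08423). The causes were not tested. In DESeq2, 215 of the 220 kept their direction and side of the threshold, and 212 against MISham 2 and 4. The shams held fewer counts than MI, so low genes are less precise in them.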
